A study of Mus musculus with 6 samples.

Results

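Components of cyclic nucleotide and G protein signalling were compared between PTIP-deleted and control mouse hearts for 128 of the 18193 genes measured. The genes were taken by symbol alone. They comprised every gene beginning with Adcy, Akap, Prka, Prkg, Gna, Gnb, Gng, Grk or Rgs, and every gene beginning with Pde followed by a digit. They were covered by 312 of the 45037 probe sets tested, and each gene was represented by the probe set of that gene alone with the highest mean over all 6 arrays. Of the 128 representatives, 88 had a mean above 5.19 on the log2 scale, the median over the means of all probe sets, called the all-array median below.

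Left ventricular apices of 6 female littermates aged 8 weeks, on a mixed C57B6 and B6129 background, gave the RNA, with 1 array per mouse. In the 3 PTIP KO mice, 1 allele of PTIP (gene Paxip1) was floxed and the other null, and Cre recombinase fused to a modified estrogen receptor was made from a transgene under the alpha myosin heavy chain promoter, which is active in cardiomyocytes. In the 3 PTIP+ mice, 1 allele was floxed and the other wild type, and no Cre is named. Both groups received tamoxifen at 20 mg/kg, and hearts were taken 5 days later, although 1 label describes the treatment itself as lasting 5 days. Loss of PTIP in cardiomyocytes, the null allele in every other cell and the Cre transgene therefore cannot be told apart in this design. In bulk tissue fewer cells of a type and less RNA per cell cannot be told apart.

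A hormone receptor at the cell surface activates a heterotrimeric G protein by exchanging the nucleotide on its alpha subunit. Gs activates and Gi inhibits adenylyl cyclase, which makes cyclic AMP, while Gq acts through phospholipase C. RGS proteins end the signal by speeding GTP hydrolysis on the alpha subunit, and G protein-coupled receptor kinases mark active receptors for desensitisation. Cyclic AMP releases the catalytic subunits of protein kinase A (PKA) from regulatory subunits, anchoring proteins (AKAPs) hold the kinase near its substrates, and phosphodiesterases degrade the cyclic nucleotide. In heart muscle this chain carries the adrenergic increase of rate and force and its vagal restraint. PTIP is a nuclear adaptor associated with histone H3 lysine 4 methyltransferase complexes.

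The prefixes gather some genes of other function, which were kept. The Prka genes hold 6 subunits of PKA and 8 genes named for AMP-activated kinase (AMPK), an energy sensor that shares the prefix only, and these were described apart. Adcyap1 and Adcyap1r1 encode a neuropeptide and its receptor, Pde4dip a protein that anchors a phosphodiesterase, and Rgs7bp and Rgs9bp membrane anchors of RGS proteins. Gnasas1 is an antisense transcript, and Prkag2os1, among the genes named for AMPK, an opposite strand transcript. Gnb1l encodes a WD repeat protein, Pde6d a prenyl-binding protein and Pde12 a phosphodiesterase of oligoadenylates. All of these count in the family sizes and medians. Gng5, whose probe sets also match a Gng5 pseudogene, and Grk2 were not analysed here.

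The promoters of 3 members are shown first. Sequences are from RefSeq (GRCm38.p6), cover the 250 bases before an annotated transcription start, and run 5′ to 3′ on the strand of the gene. Capitals mark every CG dinucleotide in the windows of Rgs7 and Rgs6, the 2 members with a representative difference of at least 1 log2 unit. Prkar1a, a regulatory subunit of PKA, is shown because no other member with a promoter entry held the cyclic AMP response element searched for. In its window capitals mark the palindrome TGACGTCA, the cyclic AMP response element bound by CREB proteins.
Rgs7, chr1:175492546-175492795, minus strand: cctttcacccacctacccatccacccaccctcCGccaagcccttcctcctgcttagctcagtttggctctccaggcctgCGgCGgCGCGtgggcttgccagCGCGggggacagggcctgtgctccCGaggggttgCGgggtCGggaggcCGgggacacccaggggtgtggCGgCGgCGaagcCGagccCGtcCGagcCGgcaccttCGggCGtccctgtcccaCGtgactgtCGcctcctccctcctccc
Rgs6, chr12:82617249-82617498, plus strand: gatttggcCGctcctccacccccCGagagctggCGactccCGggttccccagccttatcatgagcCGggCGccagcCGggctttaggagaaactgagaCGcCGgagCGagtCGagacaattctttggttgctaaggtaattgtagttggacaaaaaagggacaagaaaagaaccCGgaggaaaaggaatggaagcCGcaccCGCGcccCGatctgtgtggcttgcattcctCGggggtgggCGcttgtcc
Prkar1a, chr11:109650699-109650948, plus strand: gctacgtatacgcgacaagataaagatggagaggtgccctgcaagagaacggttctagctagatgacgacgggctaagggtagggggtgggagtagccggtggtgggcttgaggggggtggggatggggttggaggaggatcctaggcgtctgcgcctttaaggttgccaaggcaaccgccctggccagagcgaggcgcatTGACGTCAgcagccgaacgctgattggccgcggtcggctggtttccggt

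The Rgs7 window held 22 CG dinucleotides and had a GC content of 72.4%, and the Rgs6 window held 18 and had a GC content of 59.2%. At least 18 CG dinucleotides occurred in 23.6% of the 27025 genes with an entry in the promoter table and in 50 of the 100 members with one (50%). The palindrome in the Prkar1a window began 49 bases before the start. TGACGTCA was searched on both strands in windows of 300 bases, from 250 bases before to 50 after each start. Prkar1a was the only member of the 100 to hold it (1%), beside 549 of the 27025 genes (2.03%). The shorter TGACG, which lies within it, was found on either strand in 32 members (32%) and in 23% of all genes. A gene counted if any of its windows held the letters, and the 100 members had 162 windows, beside 32851 for the 27025 genes. The shares were not adjusted for the number of windows per gene. A match of these letters is a description of the window and not a binding site.

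The arrays correlated with each other at 0.989 to 0.995 over all probe sets, and array medians lay between 5.15 and 5.26. The array of PTIP+ mouse 1 stood apart: it carried 62.9% of the first principal component. That component held 28.9% of the variance, beside 28.2% for the second. On the array of PTIP+ mouse 1 the 3′ to 5′ difference of actin control probe sets was 1.85, beside 1.17 to 1.64 on the others. Of the 4 Paxip1 probe sets, 3 fell, with log2 differences of -1.83, -1.54 and -1.58 (limma, adjusted p = 0.0240, 0.0299 and 0.0377), and the remaining one differed by -0.95 (adjusted p = 0.106). Where these probes lie relative to the deleted stretch was not analysed here. All 8 cardiomyocyte markers were bright, with means of 12.6 to 13.8. All 6 macrophage markers had negative differences (2 at an unadjusted p under 0.05, Adgre1 at -0.47 and Csf1r at -0.33), and their summed linear signal was 3509 to 4934 in PTIP KO and 4854 to 5485 in PTIP+ hearts.

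Rgs7 was the only 1 of the 128 genes to pass limma's test with Benjamini-Hochberg adjustment over all probe sets, and it fell in the PTIP KO hearts. This is 0.781% of the members, beside 0.286% of all 18193 genes (0.11% higher and 0.176% lower). At an unadjusted p under 0.05, 5 members were higher (3.91%, beside 5.47% of all genes) and 7 lower (5.47%, beside 3.8%), together 9.38% of the members beside 9.27% of all genes. That share is near the background and is no result about the genes as a group. All 6 values were separated by group in 10 members on the higher side (7.81%, beside 9.44% of all genes) and 13 on the lower side (10.2%, beside 6.57%), together 18% beside 16% of all genes. Over all 312 probe sets of the members, 33 had an unadjusted p under 0.05, 18 of them higher and 15 lower, and in 52 the groups were apart. Over all 45037 probe sets the shares were 9.07%, of which 4.48% higher and 4.59% lower, and 14.4%.

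Most components kept close to 0, as did most genes of the array. The difference was smaller than 0.25 log2 units in 105 of the 128 genes, beside 14508 of all 18193 genes. That closeness is therefore no trait of the members. The difference was positive in 63 members (49.2%, beside 55.1% of all genes) and negative in 65. The median difference was -0.01, and over all genes it was 0.02. No family had a median beyond 0.1 except the 2 cyclic GMP-dependent kinases. The median was -0.03 for 21 Rgs genes, -0.02 for 16 Gna, -0.04 for 6 Gnb, -0.07 for 11 Gng and 0.08 for 5 Grk genes. It was 0.02 for 12 Adcy, 0.04 for 25 Pde, -0.09 for 6 PKA subunits, 0.06 for 8 AMPK genes and -0.02 for 16 Akap genes.

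**Figure D1:**
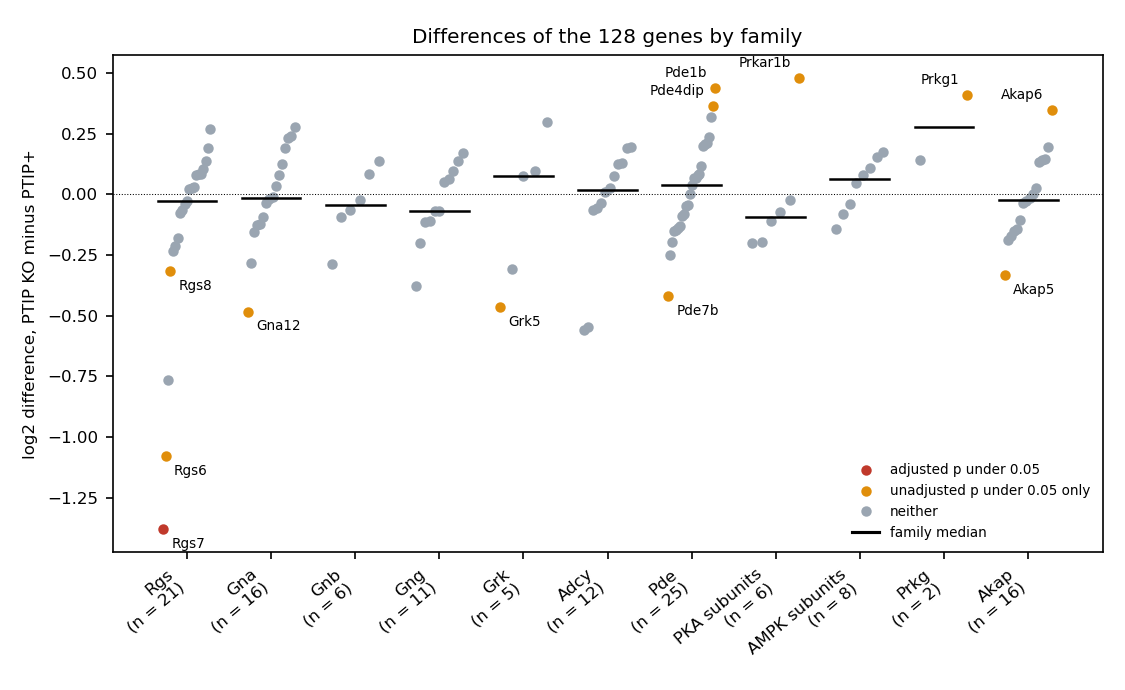
Log2 difference (PTIP KO minus PTIP+, vertical axis) of each of the 128 genes, by family (horizontal axis), with each point 1 gene, black bars the family medians, and colour the test passed. Rgs7 at -1.38 is the only gene past the adjusted threshold, Rgs6 lies next at -1.08, and the 11 family medians lie between -0.09 and 0.28.

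The largest differences among the RGS genes were in Rgs7 and Rgs6, both members of the R7 group, whose proteins pair with the G protein beta subunit Gnb5 and act on the Gi and Go class. Rgs7, best known from retina and brain, read 4.81, 4.59 and 5.03 in the PTIP KO hearts. In PTIP+ hearts it read 6.28, 6.22 and 6.08. The groups did not overlap, and the gap between the highest knockout and the lowest control value was wider than the spread within either group. Rgs7 fell by 1.38 log2 units (SE 0.14, 95% interval -1.71 to -1.05), from 6.19 ± 0.10 to 4.81 ± 0.22 (SD, n = 3 each), a 2.61-fold decrease with an adjusted p of 0.0299 from limma. The exact two-sided permutation test of the 6 values gave p = 0.1, the smallest that 3 against 3 allows. Rgs7 was read by a single probe set, and all its knockout values lay below the all-array median. The call was lost when any 1 mouse was left out, with differences of -1.49 to -1.27 and limma adjusted p of 0.0739 to 0.135. Without PTIP+ mouse 1 the difference was -1.34.

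Rgs6 is the R7 member known in the heart, where it limits the vagal slowing of the pacemaker. Its representative probe set read 5.18, 5.03 and 5.76 in PTIP KO and 6.42, 6.41 and 6.38 in PTIP+ hearts, a difference of -1.08 (SE 0.19, limma adjusted p = 0.121). Its second probe set, 1427340_at, read 4.12, 4.39 and 3.89 in PTIP KO and 6.13, 5.46 and 5.26 in PTIP+ hearts, a difference of -1.49 (SE 0.24, adjusted p = 0.0898). The mean of 1427340_at over all arrays lay below the all-array median. All knockout values lay below all control values in both probe sets, but neither passed. When the probe sets of each gene were averaged before the fit, Rgs6 passed, at -1.28 with an adjusted p of 0.0333, and with array weights 1427340_at had an adjusted p of 0.0474, while without each mouse in turn it ran from 0.0905 to 0.293. Without PTIP+ mouse 1 the differences of the 2 probe sets were -1.07 and -1.23.

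Other genes of the R7 complex were not past any threshold. Rgs9, the photoreceptor and striatal member, differed by 0.19, and Rgs11 by -0.08, with both below the all-array median. Gnb5, the obligate partner of the group, read 8.02, 8.53 and 8.42 against 8.64, 8.21 and 8.31, so the groups overlapped, and differed by -0.07 (95% interval -0.48 to 0.35). The anchors Rgs7bp and Rgs9bp differed by 0.02 and 0.08. Markers of cells in which Rgs6 and Rgs7 are known were read beside them. Atrial Myl7 was 7.46, 5.71 and 6.94 in PTIP KO and 8.35, 7.25 and 5.83 in PTIP+ hearts, overlapping between groups. Atrial Myl4 and Sln differed by -0.04 and -0.05, and like Myl7 both were highest in PTIP+ mouse 1, at 9.70 and 5.66. Atrial Nppa, also a stress gene of the ventricle, differed by 0.54 (limma, adjusted p = 0.458). Of the nerve markers measured, 4 of 5 (Prph, Snap25, Th and Tubb3) lay below the all-array median, and their summed linear signal with Dbh was 190 to 199 in PTIP KO and 195 to 235 in PTIP+ hearts. Of the Schwann cell markers, Sox10 differed by 0.54 (adjusted p = 0.441) without overlap and S100b by 0.10. The part of atrial, nerve or Schwann cells in the Rgs6 and Rgs7 values was not tested.

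**Figure D2:**
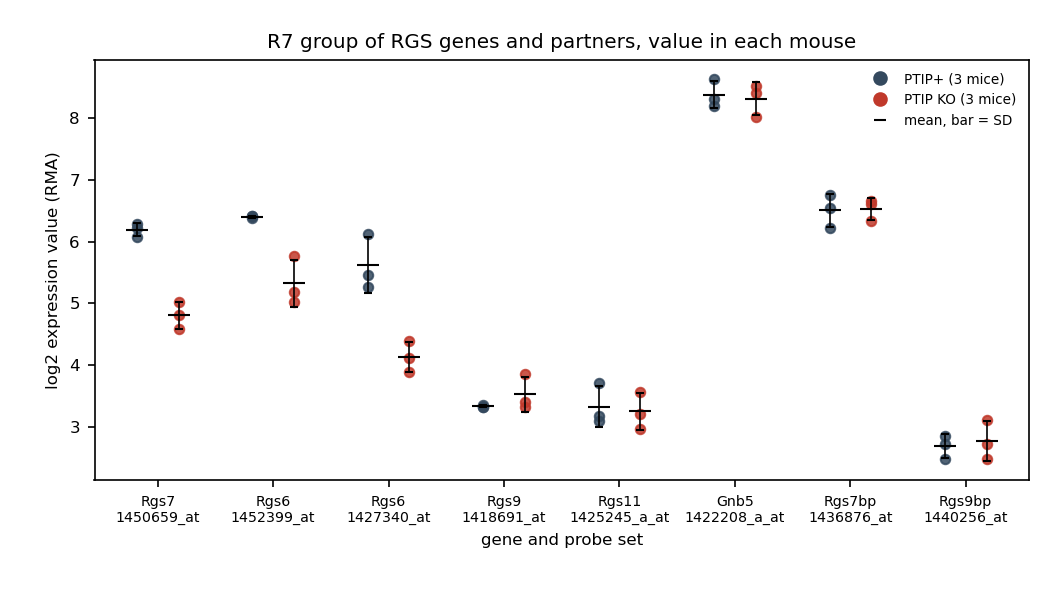
Log2 expression value (vertical axis) in each mouse for Rgs7, both Rgs6 probe sets and the representatives of the other R7 genes and partners (horizontal axis); points are mice, wide bars means and thin bars SD, with n = 3 per group. The groups are apart for Rgs7 and both Rgs6 probe sets and overlap for Rgs9, Rgs11, Gnb5, Rgs7bp and Rgs9bp.

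Among the 15 RGS genes outside the R7 group and its anchors, the median difference was -0.03 and none passed. Rgs5, a marker of pericytes, read 12.10, 12.23 and 12.17 in PTIP KO and 12.16, 12.07 and 12.18 in PTIP+ hearts, a difference of 0.03 (95% interval -0.21 to 0.27). Rgs2, which restrains Gq signalling in cardiac and smooth muscle, differed by -0.03 (95% interval -0.34 to 0.29), and Rgs3 by -0.06. For both Rgs5 and Rgs2 the interval includes 0. Rgs4, a cardiac regulator of Gi and Gq, read 8.74, 8.78 and 8.81 against 8.90, 9.04 and 9.03, a separation of all 6 values at a difference of -0.21 with an adjusted p of 0.613. A further Rgs3 probe set, 1449516_a_at, had the opposite sign, at 0.34 (adjusted p = 0.499). Rgs8 had an unadjusted p under 0.05 at -0.32, with values of 2.91 to 3.46, all below the all-array median. Rgs18 and Rgs10, known from blood cells, and the more widely expressed Rgs19 differed by -0.76, -0.24 and -0.18, with adjusted p of 0.689, 0.744 and 0.798. Macrophage markers had negative differences too, as given above, and their part in these 3 values was not tested.

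Among G protein alpha subunits, Gna12 had the smallest p. It encodes an alpha subunit of the G12 class. Its values were 9.38, 9.15 and 9.15 in PTIP KO and 9.59, 9.67 and 9.88 in PTIP+ hearts. The groups did not overlap, and the difference was -0.48 (SE 0.13, adjusted p = 0.301). A second probe set above the median, 1450097_s_at, differed by -0.72 with overlapping groups, and 3 dim ones by -0.45, -0.01 and -0.11. Gna13, its closest relative, differed by -0.09. All 7 of its probe sets had negative differences, and in 1430295_at (-0.31, adjusted p = 0.523) and 1453470_a_at (-0.26, adjusted p = 0.549) the groups were apart.

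Among the alpha subunits of the adrenergic and muscarinic pathways, none named here had an unadjusted p under 0.05 by its representative. Gnas, the Gs alpha subunit that activates adenylyl cyclase, read 12.83, 12.85 and 12.87 against 12.84, 12.93 and 12.85, with overlapping groups and a difference of -0.02 (95% interval -0.25 to 0.21). Gnai2, the main cardiac Gi subunit, read 11.26, 11.30 and 11.26 against 10.97, 11.12 and 11.15. Its groups were apart, with a difference of 0.19 (95% interval -0.05 to 0.44) and an adjusted p of 0.670. Gnai3, another Gi subunit, differed by -0.28 (adjusted p = 0.632) with overlapping values, and Gnao1, the Go subunit, by -0.12. The Gq class genes Gnaq and Gna11 differed by -0.01 and 0.08, although all Gna11 values in PTIP KO, 9.98, 9.98 and 9.92, lay above those in PTIP+. Gnat1 and Gnat2, the transducins of rods and cones, lay below the all-array median.

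The beta and gamma subunits, which carry the signal to potassium channels and receptor kinases, held no gene with an unadjusted p under 0.05 by its representative. Gnb1 read 12.45, 12.55 and 12.55 against 12.61, 12.47 and 12.55, a difference of -0.02, and Gnb2 differed by 0.08. Gnb3 had the smallest p of the beta subunits, at -0.29 (adjusted p = 0.734). Gng8 had the smallest p of the gamma subunits, at 0.17 (adjusted p = 0.802). Gng2 differed by -0.20 with overlapping groups, and its further probe sets by -0.46, -0.60 and -0.53. Of these, 1418451_at read 6.17, 6.07 and 6.05 against 6.46, 6.85 and 6.36, without overlap (adjusted p = 0.414), and the dim 1428157_at was also apart (adjusted p = 0.484). The 3 probe sets shared by Gng5 and its pseudogene differed by -0.08, -0.26 and -0.01.

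Of 5 receptor kinases, Grk5 differed most. This cardiac kinase of adrenergic receptors also acts in the nucleus on class II histone deacetylases. It read 8.14, 8.20 and 8.26 in PTIP KO and 8.66, 8.97 and 8.36 in PTIP+ hearts. The groups were narrowly apart, and the difference was -0.46 (SE 0.16, adjusted p = 0.451). Its second probe set, 1449514_at, was also apart, at -0.28 (adjusted p = 0.594). Grk6 differed by 0.10 and Grk3 by -0.31, both with overlapping groups.

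None of the 12 Adcy genes had an unadjusted p under 0.05. Adcy5 and Adcy6 encode the main adenylyl cyclases of the ventricular myocyte, which Gs activates and Gi inhibits. Adcy5 read 10.12, 10.45 and 10.20 against 10.37, 9.91 and 10.27, with a difference of 0.07 (95% interval -0.30 to 0.45). Adcy6 read 11.39, 11.22 and 11.21 against 11.16, 11.08 and 11.19, a difference of 0.13 (95% interval -0.12 to 0.38, adjusted p = 0.811). The Adcy6 groups were apart by a narrow margin, and the Adcy5 groups overlapped. The other cyclases above the all-array median, Adcy3, Adcy4, Adcy7 and Adcy9, differed by 0.13, 0.01, -0.04 and -0.06. The family's lowest values, -0.56 for Adcy1 and -0.54 for Adcy2, came from dim probe sets with overlapping groups (adjusted p = 0.628 and 0.679).

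**Figure D3:**
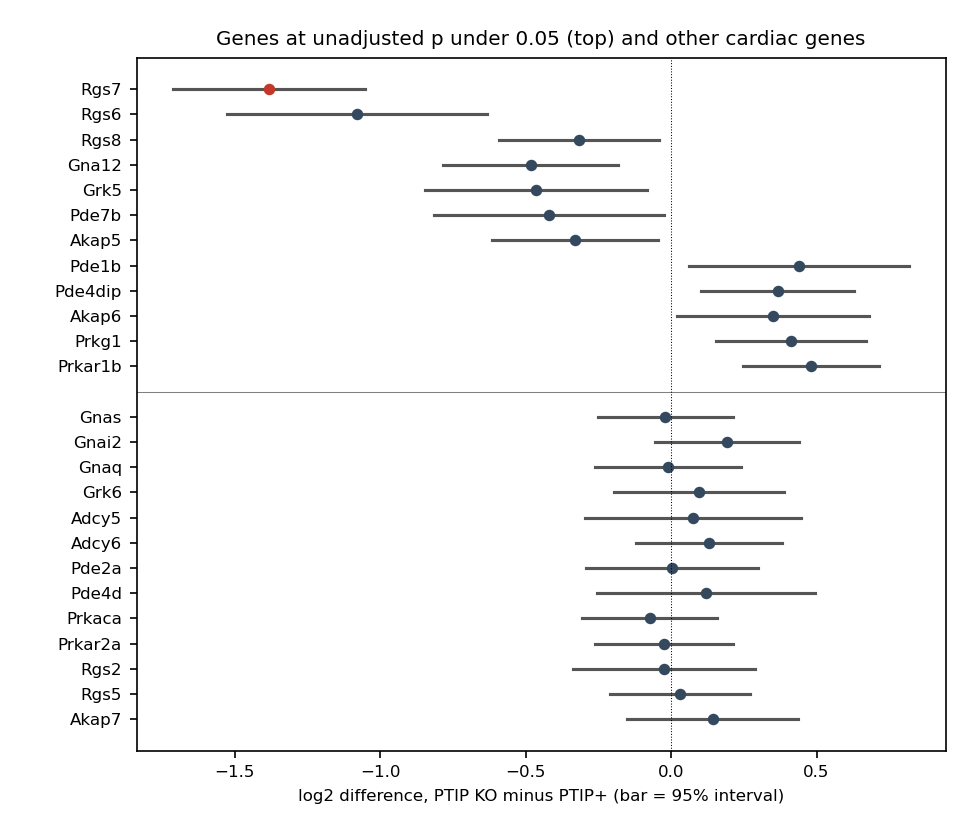
Log2 difference (PTIP KO minus PTIP+, horizontal axis) with its 95% interval for the 12 members at an unadjusted p under 0.05 (above the line) and 13 other members (below). Those below are a selection from the list of cardiac members, apart from Grk6, which is not on that list. The Rgs7 point, in red, is the only one past the adjusted threshold. The intervals below the line include 0 by construction, since every member at an unadjusted p under 0.05 was placed above it. The cardiac members Rgs6, Grk5, Prkg1, Akap5 and Akap6 therefore stand above the line.

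The 25 Pde genes included the phosphodiesterases that set cyclic AMP and cyclic GMP levels in the myocyte. Pde4d, which controls cyclic AMP near beta receptors and the ryanodine receptor, differed by 0.12. Pde2a, which cyclic GMP activates, differed by 0.00 and Pde3a, the target of inotropic inhibitors, by 0.07. Pde3b differed by -0.15, Pde8a by -0.05, and Pde5a, the target of sildenafil, by -0.19. All of these representatives had adjusted p above 0.8 and overlapping groups. A second, dim probe set of Pde4d, 1459311_at, read 3.76, 3.80 and 4.13 against 3.10, 3.21 and 3.43, apart at a difference of 0.65 (adjusted p = 0.219). Pde4b read 10.22, 10.42 and 10.40 against 10.87, 10.49 and 10.42, a difference of -0.25 (adjusted p = 0.706), and -0.11 without PTIP+ mouse 1. The Pde4b groups were apart by a narrow margin. Its dim probe set 1446577_at was also apart, at -0.47 (adjusted p = 0.352). The 4 others overlapped, and among those above the all-array median the difference reached 0.23, the opposite sign. Pde9a, which degrades cyclic GMP, read 7.05, 7.09 and 7.28 against 6.92, 6.94 and 6.96. Its groups were apart, with a difference of 0.20 (adjusted p = 0.669).

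At an unadjusted p under 0.05 stood Pde1b, Pde4dip and Pde7b. Pde1b, a phosphodiesterase activated by calcium and calmodulin, read 5.99, 5.83 and 5.70 against 5.09, 5.55 and 5.56, a difference of 0.44 (adjusted p = 0.469). Without PTIP+ mouse 1, whose value was the lowest, its difference was 0.28 and its unadjusted p 0.0656. Pde7b, specific for cyclic AMP, read 7.29, 6.88 and 7.49 against 7.75, 7.60 and 7.56, a difference of -0.42 (adjusted p = 0.521). Without PTIP KO mouse 2, the lowest, the difference was -0.25, and over all mice left out in turn it ran from -0.56 to -0.25. Its 2 dimmer probe sets differed by 0.18 and -0.01, so they did not share the size. Pde4dip (myomegalin), an anchor at the Golgi and the sarcomere rather than an enzyme, read 12.59, 12.40 and 12.35 against 12.02, 12.09 and 12.14. Its groups were apart, with a difference of 0.37 (adjusted p = 0.381), while its further probe sets differed by 0.57, 0.11 and -0.20. The visual phosphodiesterase genes Pde6a, Pde6b, Pde6c, Pde6g and Pde6h all lay below the all-array median.

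Pde1c was the member whose probe sets disagreed most. It encodes a calcium and calmodulin-activated phosphodiesterase of cardiac myocytes that degrades both cyclic nucleotides. Its representative, 1440374_at, read 11.08, 11.52 and 11.61 in PTIP KO and 11.41, 11.33 and 11.26 in PTIP+ hearts, overlapping, with a difference of 0.07 (95% interval -0.30 to 0.44). The probe set 1426036_a_at read 8.36, 8.95 and 8.83 in PTIP KO against 7.29, 7.76 and 7.59 in PTIP+, a difference of 1.17 (SE 0.19, 2.25-fold, adjusted p = 0.0946). The probe set 1436251_at read 7.26, 7.92 and 7.46 against 6.59, 5.86 and 6.18, a difference of 1.33 (SE 0.23, 2.52-fold, adjusted p = 0.114). In both, every knockout value exceeded every control value, which the representative did not show. The dim 1444386_at read 4.89, 5.66 and 5.13 against 3.86, 3.65 and 3.94, again without overlap, a difference of 1.41 (SE 0.20, 2.66-fold, adjusted p = 0.0673). The remaining probe sets, 1444067_at and 1429643_a_at, differed by 0.53 and 0.36 with overlapping groups.

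The disagreement within Pde1c was also measured in each mouse, as the value of a probe set minus that of the representative in the same array. The shift of this within-mouse value between groups was 1.10 for 1426036_a_at, 1.26 for 1436251_at and 1.34 for 1444386_at. In each of the 3, all PTIP KO mice exceeded all PTIP+ mice (exact two-sided permutation test, p = 0.1, the smallest possible, n = 3 each). These probe sets were picked for their differences, so the p is a description. Which Pde1c transcripts each probe set reads was not analysed here. The adjusted p of 1426036_a_at and 1444386_at was 0.0424 and 0.0375 when limma's variance prior followed the signal level, and with array weights it was 0.0421 and 0.0371, with 0.0412 for 1436251_at. None of the 3 passed with the robust prior (0.102, 0.123 and 0.0730 for 1426036_a_at, 1436251_at and 1444386_at), after centring, after renewed quantile normalisation or with either filter on dim probe sets, of which the stricter left out 1444386_at itself. Without each mouse in turn, their adjusted p ran from 0.0949 to 0.327.

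Among 51 members with at least 2 probe sets above the all-array median, Pde1c was the only 1 whose differences spanned at least 1 log2 unit (1.96%, beside 26 of 5088 genes, 0.511%). The median span was 0.13 in the members and 0.14 in all such genes. A probe set of Akap13, 1430185_at, differed by -0.48 and another, 1443923_at, by 0.39, so the sign depended on the probe set.

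The PKA subunits showed values on both sides of 0. The catalytic subunit gene Prkaca, which encodes the kinase that phosphorylates phospholamban and troponin I, read 12.25, 12.32 and 12.36 against 12.39, 12.41 and 12.36, a difference of -0.07 (95% interval -0.31 to 0.16). Prkacb differed by -0.11, and the type II regulatory subunits Prkar2a and Prkar2b by -0.02 and -0.19. None of these 4 representatives had groups apart, although a dim probe set of Prkar2b, 1430640_a_at, was apart at -0.60 (adjusted p = 0.376).

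Prkar1b, a type I regulatory subunit best known from neurons, had the smallest p of the kinase genes. It read 6.88, 6.90 and 6.84 in PTIP KO and 6.33, 6.44 and 6.40 in PTIP+ hearts. The mice of each group lay close together and the groups were apart. The difference was 0.48 (SE 0.10, 1.40-fold, 95% interval 0.25 to 0.71), with an adjusted p of 0.184, so it did not pass. Of its 4 other probe sets, all below the all-array median, 3 differed by 0.38, 0.33 and 0.41 without overlap and the fourth by -0.14.

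Prkar1a, the main type I regulatory subunit of the heart, differed between its bright probe sets. The representative, 1452032_at, read 10.36, 10.64 and 10.63 in PTIP KO and 10.86, 10.76 and 10.62 in PTIP+ hearts, overlapping, with a difference of -0.20 (adjusted p = 0.734). The probe set 1425550_a_at read 9.69, 9.86 and 9.80 against 10.77, 10.64 and 10.47, a difference of -0.84 (SE 0.12, 1.79-fold, adjusted p = 0.0661). Its groups were apart, with the highest knockout value well below the lowest control value. Within each mouse, this probe set minus the representative shifted by -0.64 between the groups without overlap (exact permutation p = 0.1, n = 3 each). The probe set 1425550_a_at was picked for its difference, so that p is a description. The adjusted p of 1425550_a_at was 0.0138 with limma's variance trend, 0.0417 when dim probe sets were left out before the fit and 0.0421 with array weights. It was 0.104 after centring on array medians, 0.0710 with the robust prior and 0.110 to 0.233 without each mouse in turn, so the call depended on the setting. Without PTIP+ mouse 1 the difference was -0.77. The third probe set, 1447635_at, was close to the lowest signals of the array at about 2 and differed by 0.01.

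**Figure D4:**
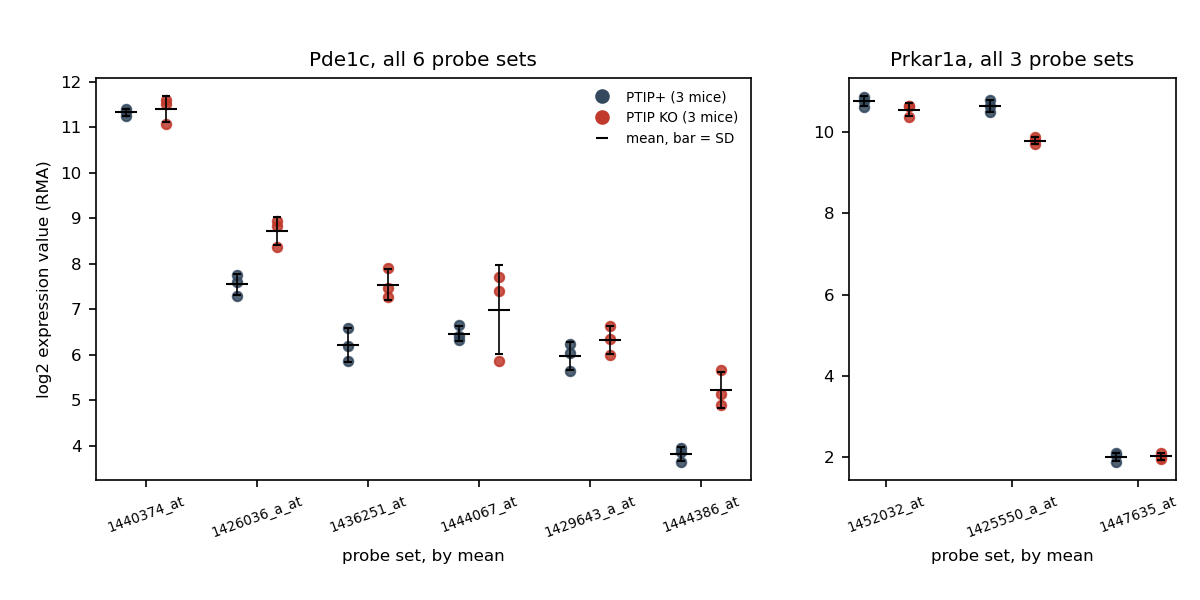
Log2 expression value (vertical axis) in each mouse for all 6 probe sets of Pde1c (left) and all 3 of Prkar1a (right), ordered by mean along the horizontal axis; points are mice, wide bars means and thin bars SD, with n = 3 per group. The groups are apart for 3 Pde1c probe sets and for Prkar1a 1425550_a_at, and overlap for both representatives.

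The cyclic GMP-dependent kinase Prkg1, which mediates natriuretic peptide and nitric oxide signals, read 9.90, 10.12 and 10.01 in PTIP KO and 9.65, 9.53 and 9.62 in PTIP+ hearts. The groups were apart, with a difference of 0.41 (SE 0.11, 95% interval 0.15 to 0.67) and an adjusted p of 0.302. Its dimmer probe set, 1449876_at, read 5.60, 6.23 and 5.32 against 4.68, 4.54 and 5.20, a difference of 0.91 (adjusted p = 0.349). Both probe sets of Prkg1 thus lay higher in every knockout mouse, without passing. Prkg1 is abundant in smooth muscle, and the 9 mural cell markers had a median difference of 0.09, with 6 positive, and a summed linear signal of 12329 to 13760 in PTIP KO and 13035 to 14698 in PTIP+ hearts. The part of mural cells in the Prkg1 value was not tested. Prkg2 differed by 0.14 and lay below the all-array median.

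None of the 8 genes named for AMPK had an unadjusted p under 0.05 by its representative. Prkaa2, the main catalytic subunit of heart and skeletal muscle, differed by 0.18 (adjusted p = 0.733), and its 2 further probe sets by 0.57 and 0.27. Of these, 1429463_at read 9.27, 9.82 and 9.41 against 8.75, 9.08 and 8.96, without overlap (adjusted p = 0.361). Prkag2, whose mutations cause a glycogen storage cardiomyopathy, differed by 0.08 (95% interval -0.23 to 0.39).

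Among 16 anchoring proteins, 7 differences were positive and 9 negative, and Akap5 and Akap6 had an unadjusted p under 0.05 in opposite directions. Akap6, which organises a PKA complex at the nuclear envelope of myocytes, read 10.31, 10.64 and 10.48 against 10.33, 10.01 and 10.04. The groups overlapped by 1 mouse, with a difference of 0.35 (SE 0.14, adjusted p = 0.522), and the second probe set differed by 0.31. Akap5, which links PKA to calcium channels and adrenergic receptors, read 4.88, 5.09 and 5.02 against 5.24, 5.25 and 5.49. Its groups were apart, with a mean over all arrays just below the all-array median and a difference of -0.33 (SE 0.12, adjusted p = 0.471). Its other probe sets, also below that median, differed by -0.27 and -0.32 with overlapping groups. Akap1, an anchor at mitochondria, differed by 0.15, Akap7, which tethers PKA to phospholamban, by 0.14, and Akap13 by 0.20.

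A further 56 genes of the pathway were listed outside the prefixes, and 46 of them were measured: receptors and guanylyl cyclases, regulators such as arrestins and popeye proteins, and PKA and CREB targets. None passed limma's adjusted test, 4 had an unadjusted p under 0.05 (3 higher and 1 lower), and their median difference was 0.05. That count is near the share of all genes at this threshold (9.27%), so it is no result about the partners, and those named are the ones with the smallest p. Hcn2, a pacemaker channel gated by cyclic AMP, read 5.19, 5.20 and 5.18 against 5.62, 5.45 and 5.87, apart at a difference of -0.45 (adjusted p = 0.349). Agtr1a, the angiotensin receptor coupled to Gq, differed by 0.36 (adjusted p = 0.412), and Abcc4, a transporter that exports cyclic AMP, by 0.34 (adjusted p = 0.387). Per1, a clock gene with a CREB response, differed by 0.36 (adjusted p = 0.467). In these 4 genes the groups were apart. Next in order of p came Npr2, a natriuretic peptide receptor, at 0.24 with groups also apart. Ppp1r1a, a PKA-dependent phosphatase inhibitor, followed at 0.27 with overlapping groups. The PKA targets of the contractile cycle, Pln, Ryr2, Tnni3 and Mybpc3, differed by -0.01, -0.11, 0.01 and 0.04.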

How the data were processed

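The authors deposited log2 values from RMA, a method that subtracts background, equalises the arrays and combines the probes of each set, per the submitters' processing notes. Its version was not stated, and base 2 was assumed because values ran from 1.36 to 14.1. RMA compresses differences of dim probe sets and hides changes in total RNA. RNA was amplified and labelled with the NuGen Ovation biotin system, per the labels.

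Of 45101 probe sets, 64 controls were left out. Names came from the platform annotation, with symbols renewed by Entrez identifier from RefSeq (GRCm38.p6): 34945 tested probe sets had 1 gene, 932 several and 9160 were not named, and 34741 of the 34945 matched. Groups were compared as PTIP KO minus PTIP+ by lmFit and eBayes of limma 3.58.1 (R 4.3.3), two-sided, with Benjamini-Hochberg adjustment over 45037 probe sets and a threshold of 0.05. The fit was tested on simulated data. Precision is limited by the number of mice (median SE of a difference 0.147).

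Named were members past adjusted p, up to 10 per direction with an unadjusted p under 0.05, groups apart and a mean above the median in the higher group, the smallest p of each family, a list of cardiac members, and up to 6 partners. The R7 genes, Rgs8, Rgs10, Rgs18, Rgs19, the other genes of the Adcy, Gna, Grk, Pde and PKA families with values, the contractile PKA targets and the further probe sets were chosen after their values were seen. Members, gene lists and marker lists were chosen with earlier results of these data known. The alternatives varied the variance prior, array weights, filters, normalisation, replicate number, arrays and probe set per gene.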

Additional observations from a re-analysis of the deposited data

How the results depend on the processing

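The 4 arrays that share leading description digits are PTIP KO mouse 3 and all 3 PTIP+ mice, so both arrays left out are knockouts and the lone knockout is assumed to vary like the controls; values over these 4 arrays say nothing about stability. The count of members past adjusted p was 1 as reported, 0 over those 4 arrays and 2 (Rgs7 and Rgs6) with each gene's probe sets averaged, and 0 to 0 without each mouse in turn. The 3 Paxip1 calls became 0 over the 4 arrays and 0 to 0 without each mouse. Members higher at an unadjusted p under 0.05 numbered 5, and 3 over the 4 arrays, 8 with probe sets averaged, 10 when any probe set of a member counted (chosen after seeing the data), and 4 to 6 without each mouse. Members lower numbered 7, and 4 after centring on array medians, 12 when any probe set counted, and 5 to 7 without each mouse. The shares of all genes under these alternatives are not given here, so the counts are no result about the members. Counting any probe set also gives a gene with several probe sets more chances to be called. Replicate numbers did not pair the mice (correlations of same-numbered mice -0.151, -0.0817 and -0.0108). With the replicate block, none of the further Pde1c and Prkar1a probe sets passed (adjusted p of 0.164 to 0.346), 0 members and 0 Paxip1 probe sets passed, 3 members were higher at the unadjusted threshold, and Rgs7 had an adjusted p of 0.171 by limma. Of 985 values of 62 followed genes, those of the 4 arrays included, 904 kept sign and side of the threshold, 8 lost the threshold (all Rgs7), 1 gained it (Rgs6) and 72 changed sign. The variance settings, the replicate block and the filters leave a difference unchanged, so no sign could turn there. Only Rgs7 was past the threshold to begin with, so this tally says little about stability.

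Over the 4 arrays, which is PTIP KO mouse 3 against the controls, the sign turned for Gna13 (0.0041), Gnaq (0.080), Gnas (0.0033), Gnb1 (0.0075), Gnb2 (-0.026), Gnb5 (0.030), Pde2a (-0.16), Pde3a (-0.068), Pde3b (0.0087), Pde5a (0.16), Pde8a (0.081), Prkar2a (0.011), Prkar2b (0.15), Rgs18 (0.31), Rgs2 (0.10) and Rgs9 (-0.018). With array weights it turned for Gnaq (0.0060), Gnb1 (0.0046), Gnb2 (-0.048), Gnb5 (0.048), Pde5a (0.077), Pde8a (0.0080), Rgs2 (0.015) and Rgs7bp (-0.053). After centring on array medians it turned for Gnaq (0.030), Gnas (0.022), Gnb1 (0.019), Prkar2a (0.018) and Rgs2 (0.015). With probe sets averaged it turned for Akap13 (-0.0069), Gnao1 (0.15), Prkag2 (-0.032), Prkar2a (0.027), Rgs2 (0.026), Rgs3 (0.12), Rgs5 (-0.022) and Rgs7bp (-0.10). After renewed quantile normalisation it turned for Pde2a (-0.010). Without each mouse in turn, differences ran over both signs for Adcy5 (-0.063 to 0.17), Gna13 (-0.17 to 0.038), Gnao1 (-0.23 to 0.0088), Gnaq (-0.057 to 0.046), Gnas (-0.035 to 0.0079), Gnb1 (-0.060 to 0.011), Gnb2 (-0.12 to 0.23), Gnb5 (-0.17 to 0.087), Pde1c (-0.035 to 0.23), Pde2a (-0.052 to 0.083), Pde3a (-0.071 to 0.25), Pde5a (-0.37 to 0.090), Pde8a (-0.11 to 0.046), Prkag2 (-0.0031 to 0.20), Prkar2a (-0.050 to 0.012), Rgs11 (-0.24 to 0.11), Rgs2 (-0.090 to 0.070), Rgs5 (-0.0040 to 0.065), Rgs7bp (-0.12 to 0.15) and Rgs9bp (-0.088 to 0.23). The cause of these changes was not tested.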
